A study of Mus musculus with 3 samples.

Results

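The fibroblast growth factor (FGF) genes described here are 6 ligands, Fgf1, Fgf2, Fgf7, Fgf9, Fgf10 and Fgf18, and 4 receptors, Fgfr1, Fgfr2, Fgfr3 and Fgfrl1. They were taken as every probe set that the array platform annotates with one of these symbols alone, which gave 20 probe sets for the 10 genes out of 45101 probe sets and 18193 named genes on the array. Cells were released with collagenase from femurs and tibiae of C57BL/6 mice, depleted of CD45+ blood cells, CD31+ endothelial cells and Ter119+ erythroid cells, and sorted by the mesenchymal receptor PDGFRα (PDGFRa in the labels) and the progenitor marker Sca-1. The 3 sorted fractions, all C57BL/6, labelled endosteal and with no treatment named, were PDGFRa+Sca-1+, PDGFRa+Sca-1- and PDGFRa-Sca-1- cells, with 1 array each. The labels give no age, sex, number of mice or pooling, so nothing is known here about the spread between animals.

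FGFs are secreted proteins that bind receptor tyrosine kinases on the cell surface together with heparan sulfate chains, and the activated receptors signal through adaptor proteins to the RAS and MAP kinase pathway. In the skeleton Fgfr3 is known as a restraint on growth plate chondrocytes, Fgfr1 and Fgfr2 act in osteoblasts and their progenitors, and Fgf9 and Fgf18 are ligands of Fgfr3. Fgfrl1 is a receptor-like protein without the tyrosine kinase domain.

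The values are array signals on a linear intensity scale. A signal of 93.2, the mean of the array medians, served as a floor below which signals were not ordered, and a gene was called where its signals differed by 2-fold or more. With 1 array per fraction there was no replicate, no test and no p-value for any difference below. The yardstick available was the scatter between different probe sets of the same gene, whose log2 ratios had an SD of 0.60 for PDGFRa+Sca-1+ over PDGFRa+Sca-1- cells, 0.37 for PDGFRa+Sca-1- over PDGFRa-Sca-1- cells and 0.50 for PDGFRa+Sca-1+ over PDGFRa-Sca-1- cells. It covers probe scatter only. Because the comparisons share arrays, a low or high value on one array enters both comparisons that use it. In sorted bulk RNA, fewer cells of a type and less RNA per cell cannot be told apart.

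The ligands divided into a set that was highest in PDGFRa+Sca-1+ cells (Fgf7, Fgf9 and Fgf18), one that was highest in PDGFRa+Sca-1- cells (Fgf1), and 2 that were dim or under the floor (Fgf2 and Fgf10). Of the receptors, Fgfr3, Fgfrl1 and Fgfr2 were lowest in PDGFRa+Sca-1+ cells by their brightest probe sets, and Fgfr1 was highest in PDGFRa+Sca-1- cells. Each gene was compared only with itself across the arrays, since the brightness of different probe sets is not on a common scale.

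**Figure D1:**
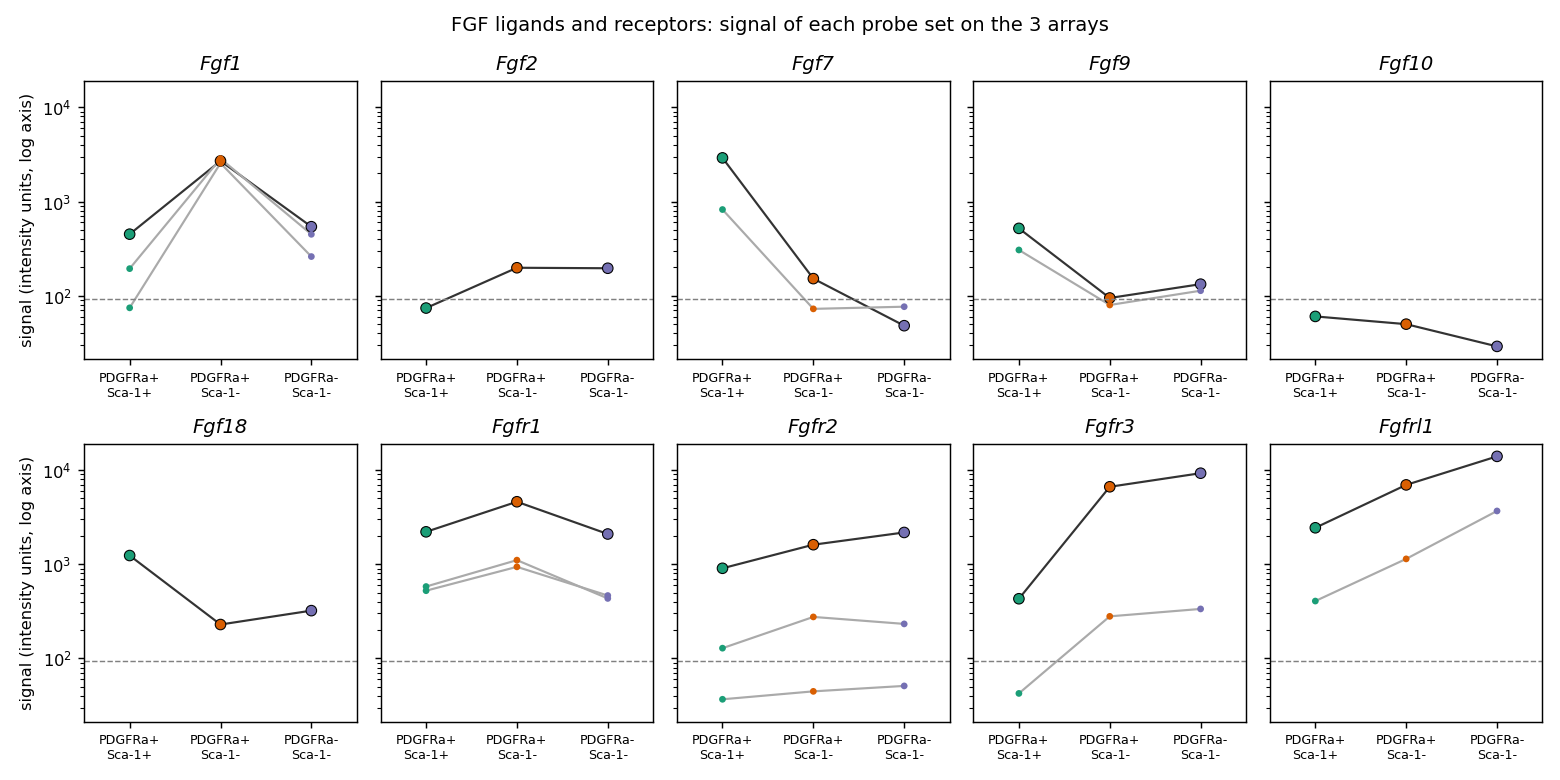
Signal of every probe set of the 10 FGF genes on the 3 arrays (vertical log axis, intensity units; horizontal axis, sorted fraction). Each line joins 1 probe set across arrays, the black line with outlined points being the brightest, and the dashed line is the floor of 93.2; the lines of Fgf7, Fgf9 and Fgf18 are highest in PDGFRa+Sca-1+ cells, the lines of Fgf1 and Fgfr1 peak in PDGFRa+Sca-1- cells, and those of Fgfr3 and Fgfrl1 are lowest in PDGFRa+Sca-1+ cells.

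Fgf7, also called keratinocyte growth factor, is made by mesenchymal cells and acts mainly on epithelial cells through a splice form of Fgfr2. Its brightest probe set (1438405_at) had a signal of 2905 in PDGFRa+Sca-1+ cells, 152 in PDGFRa+Sca-1- cells and 48.1 in PDGFRa-Sca-1- cells, the last under the floor. Fgf7 was therefore high on 1 array and near or under the floor on both others. The signal in PDGFRa+Sca-1+ cells was 19.1-fold that in PDGFRa+Sca-1- cells and at least 31.2-fold that in PDGFRa-Sca-1- cells. With a floor at the 67th percentile both were bounds at a log2 ratio of 3.51. The other Fgf7 probe set (1422243_at) gave 822 in PDGFRa+Sca-1+ cells against 72.6 in PDGFRa+Sca-1- cells and 76.5 in PDGFRa-Sca-1- cells, at least 8.83-fold higher in either comparison. Between the Sca-1- fractions, PDGFRa+ over PDGFRa-, the brightest probe set gave only a bound of at least 1.63-fold, and the other was under the floor on both arrays.

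Fgf9, a ligand with roles in skeletal growth, had a signal of 519 in PDGFRa+Sca-1+ cells, 94.7 in PDGFRa+Sca-1- cells and 133 in PDGFRa-Sca-1- cells (probe set 1438718_at). It was high on the PDGFRa+Sca-1+ array and just above the floor on the others. The ratios were 5.48-fold over PDGFRa+Sca-1- cells and 3.91-fold over PDGFRa-Sca-1- cells, and with a floor at the 67th percentile both became bounds at a log2 ratio of 1.02. Its other probe set (1420795_at) gave 306 in PDGFRa+Sca-1+ cells, 79.8 in PDGFRa+Sca-1- cells and 113 in PDGFRa-Sca-1- cells, which is at least 3.28-fold and 2.71-fold higher.

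Fgf18, which regulates both chondrocytes and osteoblasts, had 1 probe set (1449545_at), with a signal of 1237 in PDGFRa+Sca-1+ cells, 229 in PDGFRa+Sca-1- cells and 322 in PDGFRa-Sca-1- cells. The order was the same as for Fgf9, with all arrays above the floor. The signal in PDGFRa+Sca-1+ cells was 5.40-fold that in PDGFRa+Sca-1- cells and 3.84-fold that in PDGFRa-Sca-1- cells. The Sca-1- fractions differed by less than 2-fold for both genes, with log2 ratios of PDGFRa+Sca-1- over PDGFRa-Sca-1- cells of −0.49 for Fgf9 and −0.49 for Fgf18.

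Fgf1, the acidic FGF, binds all the main FGF receptors and has no classical secretion signal. Its brightest probe set (1423136_at) had a signal of 450.4 in PDGFRa+Sca-1+ cells, 2697 in PDGFRa+Sca-1- cells and 541 in PDGFRa-Sca-1- cells. The other probe sets gave 194 (1450869_at) and 74.4 (1441042_at) in PDGFRa+Sca-1+ cells, 2855.5 and 2555 in PDGFRa+Sca-1- cells, and 449 and 261 in PDGFRa-Sca-1- cells. All 3 probe sets were highest in PDGFRa+Sca-1- cells, and lower on the other arrays. Over PDGFRa-Sca-1- cells, the PDGFRa+Sca-1- signal was 4.99-fold, 6.36-fold and 9.81-fold higher by the 3 probe sets. In PDGFRa+Sca-1+ cells it was lower than in PDGFRa+Sca-1- cells, by 5.99-fold, 14.7-fold and at least 27.4-fold. Between PDGFRa+Sca-1+ and PDGFRa-Sca-1- cells the probe sets differed on the call: the brightest had a log2 ratio of −0.26, within 2-fold, while the others were 2.31-fold and at least 2.80-fold lower in PDGFRa+Sca-1+ cells.

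Fgf2, the basic FGF, is a mitogen of many mesenchymal cells and is stored in the matrix. Its single probe set (1449826_a_at) had signals of 74.0 in PDGFRa+Sca-1+ cells, 198 in PDGFRa+Sca-1- cells and 196 in PDGFRa-Sca-1- cells. The Sca-1- fractions were alike and dim, with a log2 ratio of 0.02 for PDGFRa+Sca-1- over PDGFRa-Sca-1- cells, and the PDGFRa+Sca-1+ array was under the floor. Set against PDGFRa+Sca-1- cells, the gene was at least 2.13-fold lower in PDGFRa+Sca-1+ cells, and set against PDGFRa-Sca-1- cells the bound was 2.10-fold. Both calls were lost when a pseudocount of 100 replaced the floor, at log2 ratios of −0.78 and −0.77, and with a floor at the 67th percentile Fgf2 was not compared. Fgf10, a ligand needed for limb bud outgrowth, was under the floor on every array, at 60.3 in PDGFRa+Sca-1+ cells, 49.9 in PDGFRa+Sca-1- cells and 29.0 in PDGFRa-Sca-1- cells, and was not compared.

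Among the receptors, Fgfr3 had the largest range over the arrays. Its brightest probe set (1421841_at) had a signal of 430.1 in PDGFRa+Sca-1+ cells, 6636 in PDGFRa+Sca-1- cells and 9249 in PDGFRa-Sca-1- cells. Both Sca-1- fractions were bright and the PDGFRa+Sca-1+ fraction was far below them. The signal in PDGFRa+Sca-1+ cells was 15.4-fold lower than in PDGFRa+Sca-1- cells and 21.5-fold lower than in PDGFRa-Sca-1- cells. The dimmer probe set (1425796_a_at) gave 42.6 in PDGFRa+Sca-1+ cells, under the floor, against 279.8 in PDGFRa+Sca-1- cells and 335 in PDGFRa-Sca-1- cells, which bounds the log2 ratios at −1.59 and −1.85 or lower. The Sca-1- fractions were within 2-fold by both probe sets, with log2 ratios of −0.48 and −0.26 for PDGFRa+Sca-1- over PDGFRa-Sca-1- cells.

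Fgfrl1, known for its need in diaphragm and kidney development in the mouse and for its expression in cartilage, differed between all 3 fractions. The brightest probe set (1447878_s_at) had a signal of 2436 in PDGFRa+Sca-1+ cells, 6951 in PDGFRa+Sca-1- cells and 13955 in PDGFRa-Sca-1- cells. The other (1451912_a_at) had 407 in PDGFRa+Sca-1+ cells, 1139 in PDGFRa+Sca-1- cells and 3676 in PDGFRa-Sca-1- cells. Both placed the fractions in the same order. PDGFRa+Sca-1+ cells were 2.85-fold and 2.80-fold lower than PDGFRa+Sca-1- cells by the 2 probe sets, and 5.73-fold and 9.04-fold lower than PDGFRa-Sca-1- cells. PDGFRa+Sca-1- cells were 2.01-fold and 3.23-fold lower than PDGFRa-Sca-1- cells. The 2.01-fold value sat on the threshold, and the call was lost with a pseudocount of 100 and with either other scaling of the arrays, at log2 ratios of −0.995, −0.992 and −0.972.

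Fgfr3 and Fgfrl1 were the receptors with the largest differences and were lower in PDGFRa+Sca-1+ cells, whereas Fgf7 was the ligand with the largest difference and was higher there, so their start site sequences are shown. RefSeq promoter windows of build GRCm38.p6, reaching from 250 bases before to 50 bases after a gene's start, matched 8 of the 10 genes in 9 windows, and Fgf1 and Fgfr1 had none. The windows shown lie at chr5:33721474-33721773 for Fgfr3, chr5:108693979-108694278 for Fgfrl1 and chr2:126034408-126034707 for Fgf7, all on the plus strand. Capitals mark the GC box GGGCGG on either strand (CCGCCC as printed on the other), the core letters bound by Sp1-type factors, with overlapping matches counted.
Fgfr3: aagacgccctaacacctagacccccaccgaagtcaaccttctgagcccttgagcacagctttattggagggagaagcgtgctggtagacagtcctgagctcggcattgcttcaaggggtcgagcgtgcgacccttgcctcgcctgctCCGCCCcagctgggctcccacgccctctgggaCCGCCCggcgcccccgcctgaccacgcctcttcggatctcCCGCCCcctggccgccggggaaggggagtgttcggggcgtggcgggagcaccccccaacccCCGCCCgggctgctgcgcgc
Fgfrl1: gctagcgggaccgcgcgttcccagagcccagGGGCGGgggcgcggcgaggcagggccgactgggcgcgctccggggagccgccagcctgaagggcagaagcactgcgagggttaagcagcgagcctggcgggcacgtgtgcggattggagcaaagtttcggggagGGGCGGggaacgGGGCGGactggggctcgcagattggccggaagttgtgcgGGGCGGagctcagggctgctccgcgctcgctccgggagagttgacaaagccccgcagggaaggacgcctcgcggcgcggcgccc
Fgf7: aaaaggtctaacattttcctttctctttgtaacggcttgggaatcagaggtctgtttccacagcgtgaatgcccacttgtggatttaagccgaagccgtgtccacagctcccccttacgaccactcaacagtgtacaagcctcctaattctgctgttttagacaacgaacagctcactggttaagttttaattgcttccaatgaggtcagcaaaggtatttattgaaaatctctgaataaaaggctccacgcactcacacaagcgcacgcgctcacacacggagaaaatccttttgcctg
The Fgfr3 and Fgfrl1 windows each held 4 GC boxes and the Fgf7 window 0. Of all 32851 promoter windows, 35.7% held at least 1 GC box and 5.49% held 4 or more. A further Fgfr3 window held 2, and the windows of Fgf2, Fgf10 and Fgf18 held 1 each. The GC content was 69.7% for the printed Fgfr3 window and 73.7% for Fgfrl1, against 45.7% for Fgf7 and a median of 52.7% over all windows. Fgf18, which was higher in PDGFRa+Sca-1+ cells like Fgf7, had the highest GC content of the members at 78.7%. Fgf9, also higher there, was near Fgf7 with 42.7% and 0 GC boxes. Fgfr2, lower in PDGFRa+Sca-1+ than in PDGFRa-Sca-1- cells, had 43.7% and 0. The genes that shared a direction thus did not all share a base composition. The TATA box letters TATAAA were in 0 of the 9 windows and in 13.6% of all windows, searched on both strands. These matches describe the letters in the windows only.

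Fgfr1, a receptor of mesenchymal and osteoblast lineage cells, was highest in PDGFRa+Sca-1- cells by all 3 of its probe sets. The brightest (1424050_s_at) had a signal of 2207 in PDGFRa+Sca-1+ cells, 4603 in PDGFRa+Sca-1- cells and 2093 in PDGFRa-Sca-1- cells. The next (1425911_a_at) had 579.6 in PDGFRa+Sca-1+ cells, 1105 in PDGFRa+Sca-1- cells and 434 in PDGFRa-Sca-1- cells, and the last (1436551_at) had 524, 938 and 465 in the same fractions. The PDGFRa+Sca-1- array stood above the other arrays, which were alike. PDGFRa+Sca-1- cells were 2.20-fold, 2.55-fold and 2.02-fold higher than PDGFRa-Sca-1- cells by the 3 probe sets. PDGFRa+Sca-1+ cells were 2.09-fold lower than PDGFRa+Sca-1- cells by the brightest probe set, but 1.91-fold and 1.79-fold lower by the others, so this call rests on 1 probe set and was lost with the mean over probe sets, at a log2 ratio of −0.94. Between PDGFRa+Sca-1+ and PDGFRa-Sca-1- cells the brightest probe set had a log2 ratio of 0.08.

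Fgfr2, whose splice forms serve mesenchymal or epithelial cells, differed less. The brightest probe set (1433489_s_at) had a signal of 905 in PDGFRa+Sca-1+ cells, 1611 in PDGFRa+Sca-1- cells and 2173 in PDGFRa-Sca-1- cells, and PDGFRa+Sca-1+ cells were 2.40-fold lower than PDGFRa-Sca-1- cells. A dimmer probe set (1420847_a_at) gave 129 in PDGFRa+Sca-1+ cells, 276 in PDGFRa+Sca-1- cells and 233 in PDGFRa-Sca-1- cells, a 1.81-fold difference in the same comparison. The probe sets thus agreed that PDGFRa+Sca-1+ cells were lowest, but not on the order of the Sca-1- fractions or on which comparison passed 2-fold: over PDGFRa+Sca-1- cells the difference was 1.78-fold by the brightest and 2.15-fold by the dimmer one. A further probe set (1443211_at) was under the floor on all arrays, at 36.9 in PDGFRa+Sca-1+ cells, 44.7 in PDGFRa+Sca-1- cells and 51.1 in PDGFRa-Sca-1- cells. Which splice forms were present is not known from these probe sets.

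Counted by the brightest probe set of each gene, 9 of the 10 genes were compared in each pairing. In PDGFRa+Sca-1+ over PDGFRa+Sca-1- cells, Fgf7, Fgf9 and Fgf18 were higher, against 14.9% of the 11855 genes compared, and Fgf1, Fgf2, Fgfr1, Fgfr3 and Fgfrl1 were lower, against 11.3%. These 8 calls were 88.9% of the compared members, where 26.2% of all genes were called either way. The median log2 ratio of the members was −1.06 and that of all genes 0.07. Fgfr2 was the member within 2-fold.

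In PDGFRa+Sca-1- over PDGFRa-Sca-1- cells, Fgf1 and Fgfr1 were higher, against 4.82% of 11675 genes, and Fgfrl1 was lower, against 5.63%. The share called was 33.3% of the members and 10.4% of all genes, and the other 6 members were within 2-fold. The median log2 ratio was −0.43 for the members and −0.03 for all genes.

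In PDGFRa+Sca-1+ over PDGFRa-Sca-1- cells, Fgf7, Fgf9 and Fgf18 were higher, against 14.5% of 11843 genes, and Fgf2, Fgfr2, Fgfr3 and Fgfrl1 were lower, against 12.2%. The share called was 77.8% of the members and 26.6% of all genes, with Fgf1 and Fgfr1 within 2-fold, and the medians were −0.26 and 0.03. The members were proposed with results of these arrays known.

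**Figure D2:**
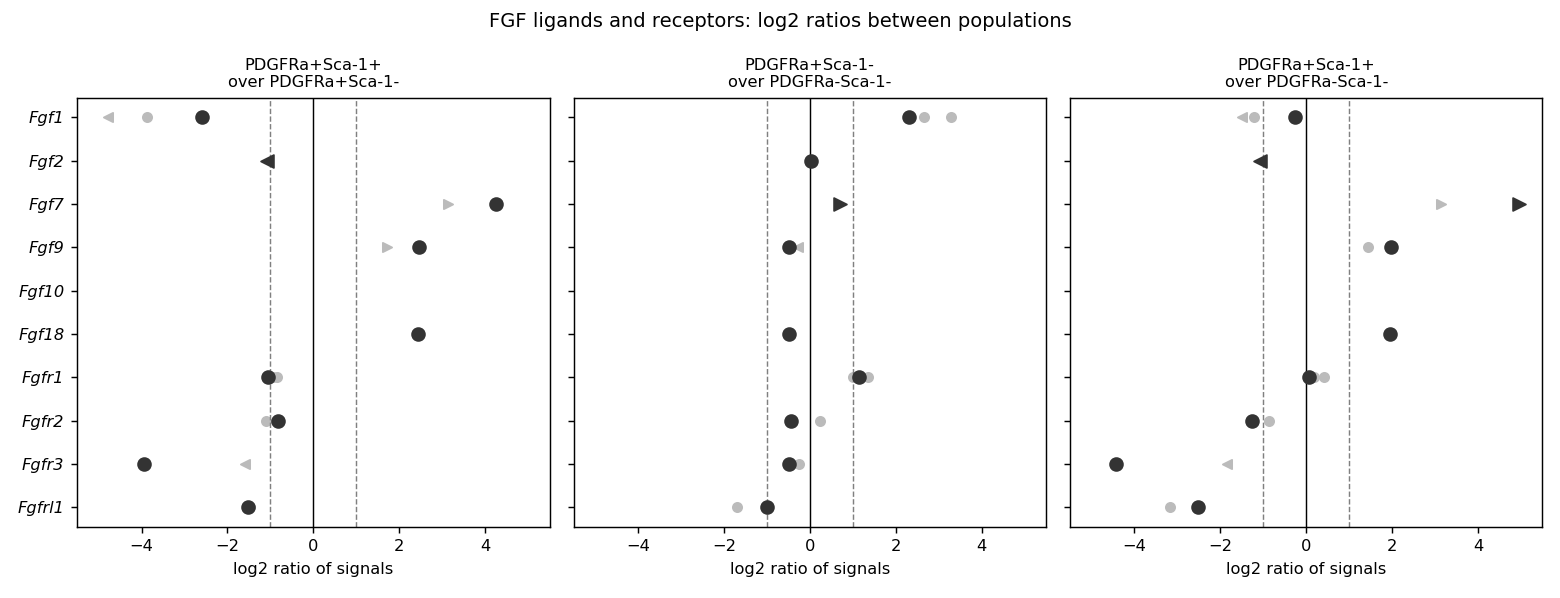
Log2 ratio of signals for each probe set of the 10 FGF genes in the 3 comparisons (horizontal axis, log2 units; solid line at 0, dashed lines at 2-fold). Large dark symbols are the brightest probe set of each gene, small grey ones the others, circles are ratios measured on both arrays and triangles are bounds that point to the side of the true value; Fgf7, Fgf9 and Fgf18 lie to the right wherever PDGFRa+Sca-1+ cells are on top of the ratio, and Fgf10 has no symbol because it was under the floor.

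The genes with the pattern most like that of Fgfr3 and Fgf1, the members with the largest range among those above the floor on all arrays, were looked up among the 9751 other genes above the floor on all 3 arrays, as the Euclidean distance between log2 signals centred on each gene's own mean. For Fgfr3 the nearest were Tnfrsf21 (distance 0.10), Chadl (0.16) and Stk26 (0.33). Tnfrsf21, for example, had signals of 151 in PDGFRa+Sca-1+ cells, 2508 in PDGFRa+Sca-1- cells and 3200.2 in PDGFRa-Sca-1- cells. For Fgf1 they were Alox12 (0.12), Gnai1 (0.15) and Nim1k (0.16), with Gnai1 at 633, 3528 and 820.0 in the same fractions. With 3 arrays a likeness of this kind is a description and nothing more.

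The remaining FGF ligands and the fourth classical receptor, Fgfr4, were dim. For these and the pathway genes that follow, counts and values are those of the brightest probe set unless others are named. Of 17 such genes, all on the array, 12 were under the floor on every array, among them the hormone-like Fgf15, Fgf21 and Fgf23. Fgf13, an intracellular FGF homologous factor, had a signal of 31.2 in PDGFRa+Sca-1+ cells, 307 in PDGFRa+Sca-1- cells and 99.3 in PDGFRa-Sca-1- cells. It was at least 3.30-fold lower in PDGFRa+Sca-1+ than in PDGFRa+Sca-1- cells and 3.09-fold higher in PDGFRa+Sca-1- than in PDGFRa-Sca-1- cells. Like Fgf1 it was highest in PDGFRa+Sca-1- cells. Fgfr4 had 97.2 in PDGFRa+Sca-1+ cells, 84.6 in PDGFRa+Sca-1- cells and 329 in PDGFRa-Sca-1- cells, but a second probe set did not show the difference, with a log2 ratio of 0.10 against −1.76 for PDGFRa+Sca-1+ over PDGFRa-Sca-1- cells. Fgf11 was at least 2.02-fold higher in PDGFRa+Sca-1+ cells than in either other fraction, at a signal of 188.

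The klotho co-receptors Kl and Klb and the FGF binding proteins Fgfbp1 and Fgfbp3 were under the floor on all arrays. The FLRT membrane proteins, which bind FGF receptors, went opposite ways. Flrt2 had a signal of 4727 in PDGFRa+Sca-1+ cells, 631 in PDGFRa+Sca-1- cells and 555 in PDGFRa-Sca-1- cells, a 7.49-fold and an 8.52-fold difference. Flrt3 had 69.5 in PDGFRa+Sca-1+ cells, under the floor, against 239 in PDGFRa+Sca-1- cells and 431 in PDGFRa-Sca-1- cells, so it was at least 2.56-fold and at least 4.63-fold lower. Its call over PDGFRa+Sca-1- cells was lost with a floor at the 67th percentile and with a pseudocount of 100. Flrt1 was within 2-fold in all comparisons.

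Of 14 genes that relay the signal inside the cell with a probe set, out of 21 listed, 11 were within 2-fold in PDGFRa+Sca-1+ over PDGFRa+Sca-1- cells, 14 in PDGFRa+Sca-1- over PDGFRa-Sca-1- cells and 12 in PDGFRa+Sca-1+ over PDGFRa-Sca-1- cells. The calls were thus 3, 0 and 2 of 14, where 26.2%, 10.4% and 26.6% of all genes were called either way, and nothing particular to relay genes is read from counts of this size. The phosphatase Ptpn11 had signals of 4774 in PDGFRa+Sca-1+ cells, 4151 in PDGFRa+Sca-1- cells and 4358 in PDGFRa-Sca-1- cells by its brightest probe set, but its other probe set had log2 ratios of −1.03 and −0.91 for PDGFRa+Sca-1+ over PDGFRa+Sca-1- and PDGFRa-Sca-1- cells. The docking protein gene Gab1 had the largest ratio of the list, at 1377 in PDGFRa+Sca-1+ cells, 6616 in PDGFRa+Sca-1- cells and 4892 in PDGFRa-Sca-1- cells. It was 4.81-fold and 3.55-fold lower in PDGFRa+Sca-1+ cells, though against PDGFRa-Sca-1- cells 1 of its 3 probe sets had a log2 ratio of only −0.76. The adaptor Grb2 was 2.34-fold lower and the exchange factor Sos1 2.15-fold higher in PDGFRa+Sca-1+ than in PDGFRa+Sca-1- cells, but a further probe set of each was within 2-fold, with log2 ratios of 0.36 and 0.19. Sos1 was also within 2-fold with a pseudocount of 100, with scaling to the median of signals above the floor and with the mean over probe sets. Nras was 2.11-fold lower in PDGFRa+Sca-1+ than in PDGFRa-Sca-1- cells, but not by every probe set.

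Feedback inhibitors of FGF signalling included some of the largest ratios of the pathway, in both directions. The Sprouty gene Spry1 had a signal of 1983 in PDGFRa+Sca-1+ cells, 494 in PDGFRa+Sca-1- cells and 224 in PDGFRa-Sca-1- cells, so it stepped down 4.02-fold and 2.20-fold between neighbours in this order. The smaller step was under 2-fold with a floor at the 67th percentile and with a pseudocount of 100. Dusp5, a nuclear phosphatase of ERK, ran the other way, with 399 in PDGFRa+Sca-1+ cells, 8842 in PDGFRa+Sca-1- cells and 4685 in PDGFRa-Sca-1- cells. It was 22.2-fold lower in PDGFRa+Sca-1+ than in PDGFRa+Sca-1- cells and 11.8-fold lower than in PDGFRa-Sca-1- cells. Il17rd, also called Sef, an inhibitor of FGF receptor signalling, was at least 16.3-fold higher in PDGFRa+Sca-1+ than in PDGFRa+Sca-1- cells and 13.3-fold higher than in PDGFRa-Sca-1- cells by its brightest probe set, at 1521, though its other probe set gave log2 ratios of only 0.59 and 0.61. Spry4 was 2.09-fold lower in PDGFRa+Sca-1+ than in PDGFRa+Sca-1- cells by its brightest probe set, while its 3 probe sets ran from −1.71 to −0.77 on the log2 scale. With a floor at the 67th percentile or a pseudocount of 100, only 1 inhibitor was lower there, against 2. Spry2 was within 2-fold in all comparisons. So were Spred1 and Spred2 by their brightest probe sets, but a probe set of Spred1 had a log2 ratio of −1.34 for PDGFRa+Sca-1+ over PDGFRa+Sca-1- cells, and one of Spred2 had 1.05 for PDGFRa+Sca-1- over PDGFRa-Sca-1- cells. Of 10 inhibitors compared, 2 were higher and 2 lower in PDGFRa+Sca-1+ over PDGFRa+Sca-1- cells, 1 higher and 0 lower in PDGFRa+Sca-1- over PDGFRa-Sca-1- cells, and 2 higher and 1 lower in PDGFRa+Sca-1+ over PDGFRa-Sca-1- cells. Their medians of 0.09, 0.28 and −0.06 lay beside 0.07, −0.03 and 0.03 for all genes, and the shares of all genes called either way were 26.2%, 10.4% and 26.6%.

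Of 11 target genes compared, 0 were higher and 3 lower in PDGFRa+Sca-1+ than in PDGFRa+Sca-1- cells, with a median log2 ratio of −0.59 against 0.07 for all genes. Of all genes 14.9% were higher and 11.3% lower there, and with scaling to the median of signals above the floor 5 target genes were lower, against 3. The 3 lower genes were Sox9, the chondrocyte transcription factor (8.65-fold), the AP-1 gene Fosl1 (4.57-fold) and Egr2 (3.40-fold). In PDGFRa+Sca-1- over PDGFRa-Sca-1- cells Egr2 was 3.41-fold higher and the cyclin gene Ccnd1 3.16-fold lower, although another of the 3 Ccnd1 probe sets had a log2 ratio of −0.47. In that comparison 4.82% of all genes were higher and 5.63% lower. In PDGFRa+Sca-1+ over PDGFRa-Sca-1- cells Sox9 (8.33-fold), Fosl1 (5.68-fold) and Ccnd1 (2.21-fold) were lower, against 12.2% of all genes, with the Ccnd1 probe sets between −1.30 and −0.82 on the log2 scale. The immediate early genes Egr1, Fos and Ier3 were within 2-fold throughout, at bright signals, where saturation can compress differences. Egr1, for example, had 28738 in PDGFRa+Sca-1+ cells, 31864 in PDGFRa+Sca-1- cells and 29329 in PDGFRa-Sca-1- cells. These genes answer to many signals besides FGF.

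Heparan sulfate proteoglycans, the co-receptors of FGFs, had calls in both directions. Of 11 core protein genes compared, 3 were higher and 3 lower in PDGFRa+Sca-1+ over PDGFRa+Sca-1- cells, 1 higher and 1 lower in PDGFRa+Sca-1- over PDGFRa-Sca-1- cells, and 3 higher and 4 lower in PDGFRa+Sca-1+ over PDGFRa-Sca-1- cells. In the same comparisons 26.2%, 10.4% and 26.6% of all genes were called either way. Syndecan 2 (Sdc2) had a signal of 10066 in PDGFRa+Sca-1+ cells, 1968 in PDGFRa+Sca-1- cells and 2121 in PDGFRa-Sca-1- cells. Glypican 3 (Gpc3) was 5.35-fold higher in PDGFRa+Sca-1+ than in PDGFRa+Sca-1- cells and at least 7.13-fold higher than in PDGFRa-Sca-1- cells. Glypican 1 (Gpc1) was the reverse, with 415 in PDGFRa+Sca-1+ cells, 5010.2 in PDGFRa+Sca-1- cells and 3660.0 in PDGFRa-Sca-1- cells. Syndecan 3 (Sdc3), at 901 in PDGFRa+Sca-1+ cells, 11611 in PDGFRa+Sca-1- cells and 12762 in PDGFRa-Sca-1- cells, and syndecan 4 (Sdc4), at 1517, 8116 and 7501, were also lower in PDGFRa+Sca-1+ cells, but over PDGFRa+Sca-1- cells other probe sets of these genes had log2 ratios of −0.15 and 0.03. Over PDGFRa-Sca-1- cells the highest probe sets of Sdc3 and Sdc4 had −0.40 and −0.68, also within 2-fold. Glypican 6 (Gpc6) was 4.29-fold lower in PDGFRa+Sca-1- than in PDGFRa-Sca-1- cells, though the highest of its 5 probe sets had a log2 ratio of −0.56.

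Enzymes that build and trim heparan sulfate had 2 higher and 4 lower of 17 compared in PDGFRa+Sca-1+ over PDGFRa+Sca-1- cells, 2 higher and 1 lower of 18 in PDGFRa+Sca-1- over PDGFRa-Sca-1- cells, and 3 of each of 18 in PDGFRa+Sca-1+ over PDGFRa-Sca-1- cells, where the same shares of all genes, 26.2%, 10.4% and 26.6%, were called. In PDGFRa+Sca-1+ over PDGFRa+Sca-1- cells only 1 was lower with a floor at the 67th percentile, and only 1 was higher with a pseudocount of 100 or with scaling to the median of signals above the floor. Sulf1, an endosulfatase that removes the 6-O-sulfate groups used in FGF receptor binding, had a signal of 5371 in PDGFRa+Sca-1+ cells, 1189 in PDGFRa+Sca-1- cells and 525 in PDGFRa-Sca-1- cells. It was 4.52-fold and 10.2-fold higher in PDGFRa+Sca-1+ cells, and 2.26-fold higher in PDGFRa+Sca-1- than in PDGFRa-Sca-1- cells. The 3-O-sulfotransferase Hs3st3b1 had 81.5 in PDGFRa+Sca-1+ cells, under the floor, against 1751 in PDGFRa+Sca-1- cells and 2231 in PDGFRa-Sca-1- cells, at least 18.8-fold and at least 23.9-fold lower, though further probe sets had log2 ratios of only −0.61 and −0.31. The polymerases Ext1 and Ext2 were within 2-fold in all comparisons by their brightest probe sets, but the other Ext1 probe set had log2 ratios of −1.08 for PDGFRa+Sca-1- over PDGFRa-Sca-1- cells and −1.41 for PDGFRa+Sca-1+ over PDGFRa-Sca-1- cells.

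**Figure D3:**
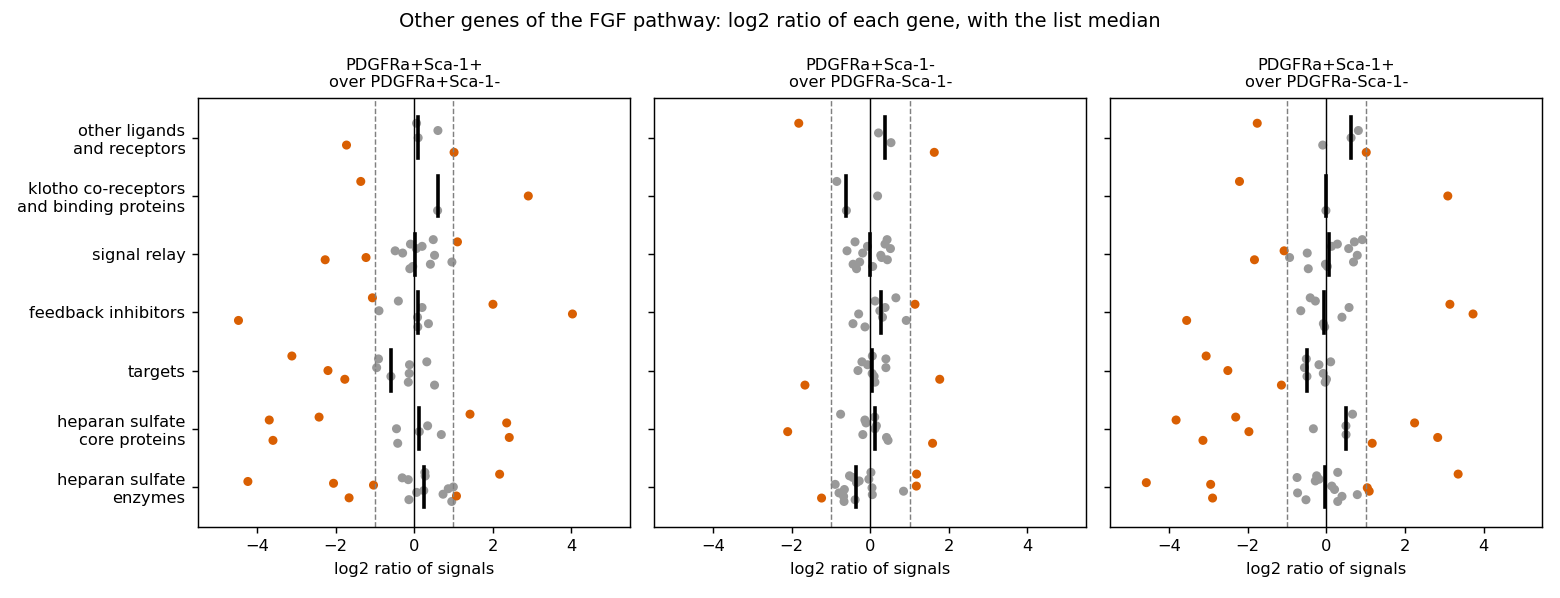
Log2 ratio of signals for the other FGF pathway genes, by list and comparison (horizontal axis, log2 units; dashed lines at 2-fold). Each point is 1 gene by its brightest probe set, with bounds entered at the floor, orange where the ratio was 2-fold or more, and the black bar is the list median; most relay genes lie between the dashed lines, and the heparan sulfate lists have orange points on both sides.

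The labelled origin was checked against markers, and some markers of both cartilage and bone were above the floor in every fraction. The sums below weigh bright probe sets most. The gene for Sca-1 is not used here. Of 12 chondrocyte markers, 11 were above the floor in PDGFRa+Sca-1+ cells, where Ihh was under it, and 12 in each Sca-1- fraction, and their summed signal was 43364 in PDGFRa+Sca-1+ cells, 241126 in PDGFRa+Sca-1- cells and 216103 in PDGFRa-Sca-1- cells. Fgfr3 and Fgfrl1 were likewise lowest in PDGFRa+Sca-1+ cells. Comp, at 25256, made up most of the chondrocyte sum in that fraction. Matn1 (115) and Col9a2 (129) were near the floor there, while Col2a1 (4096) and Col9a1 (5001) were well above it. The 8 osteoblast markers with a probe set, of 10 listed, summed to 19489.9 in PDGFRa+Sca-1+ cells, 128667 in PDGFRa+Sca-1- cells and 45253 in PDGFRa-Sca-1- cells. In the same order 7, 8 and 8 of them were above the floor, Dmp1 being under it in PDGFRa+Sca-1+ cells. Most of the osteoblast sum in that fraction was Col1a1, at 14417. Sp7 (106) was near the floor there, while Phex had 2353. Fgf1 and Fgfr1 peaked on the same array as the osteoblast markers. The chondrocyte sum was also highest on that array, at 241126, though its genes did not all follow this order. Fibroblast markers summed to 136754 in PDGFRa+Sca-1+ cells, 63447 in PDGFRa+Sca-1- cells and 46669.5 in PDGFRa-Sca-1- cells, the array order also found for Fgf7, with 9, 7 and 6 of the 9 markers above the floor. This list includes Pdgfra, a gene used for the sort, so the sum was not independent of the sort. Lum was highest in PDGFRa+Sca-1- cells (22199, 23896 and 17545 in the same order of fractions). Dcn was nearly level between the PDGFRa+ fractions (34207, 33977 and 27612), while Cd34, Dpt and Thy1 followed the order of the sum. Adipocyte markers (10065, 1560.1 and 768) and endothelial markers (1109, 234 and 132) had the order of the fibroblast sum too, but mostly through Lpl and Tek, while Adipoq, Pecam1 and Cdh5 were under the floor in PDGFRa+Sca-1+ cells. Neutrophil markers were above the floor in 6, 6 and 2 of 6 and summed to 2398 in PDGFRa+Sca-1+ cells, 2801 in PDGFRa+Sca-1- cells and 528 in PDGFRa-Sca-1- cells, so they too were highest on the array where Fgf1 and Fgfr1 peaked. Epithelial markers, mostly Epcam, also peaked on that array (989, 2213 and 1174 in the same order of fractions). Blood markers had the array order of Fgf7 (693, 538 and 450), with 2 of 5 above the floor on each array. Pericyte and smooth muscle markers had neither order (4343, 3367 and 6015). The part of cell make-up in the FGF differences was not tested.

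Of the other lists, proliferation markers summed to 1104 in PDGFRa+Sca-1+ cells, 1011 in PDGFRa+Sca-1- cells and 6554 in PDGFRa-Sca-1- cells, and 5 erythroid markers to 1223, 2101 and 7192, mostly the transferrin receptor Tfrc. The defining blood marker Ptprc (CD45) and the endothelial marker Pecam1 (CD31) were under the floor on all arrays, and Pdgfra itself had 12846 in PDGFRa+Sca-1+ cells, 2420.4 in PDGFRa+Sca-1- cells and 586 in PDGFRa-Sca-1- cells. The balance of 3' over 5' signal also differed. The control probe sets at the 3' end of Actb were 4.65 times as bright as those at the 5' end in PDGFRa+Sca-1+ cells. The ratio was 2.63 in PDGFRa+Sca-1- cells and 2.99 in PDGFRa-Sca-1- cells. For Gapdh it was 4.73, 3.54 and 3.93 in the same order of fractions. The part of this end balance in the differences between probe sets was not tested.

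**Figure D4:**
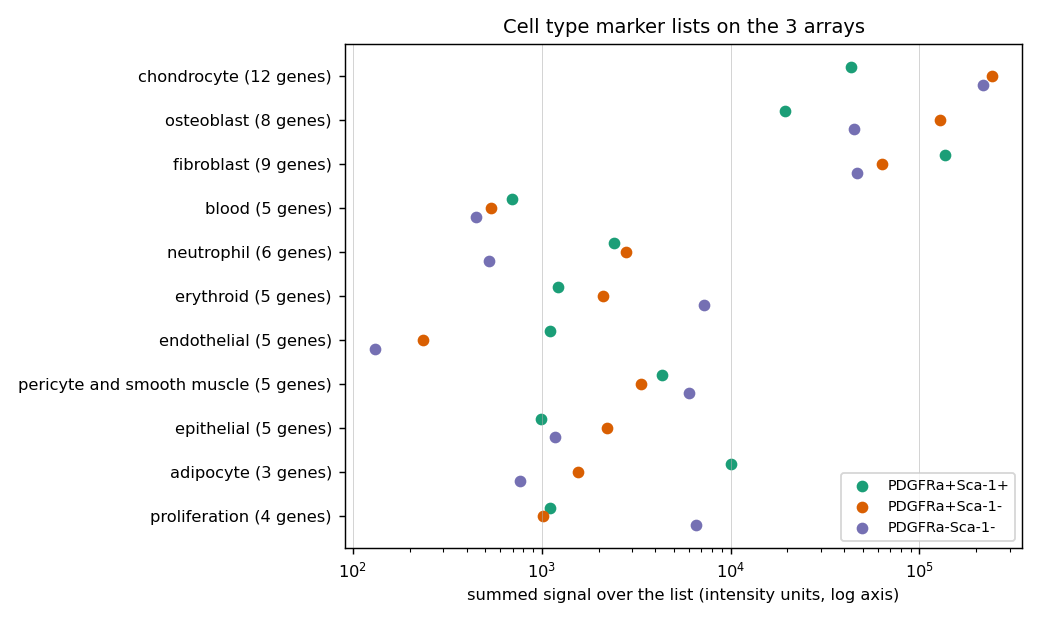
Summed signal of each cell type marker list on the 3 arrays (horizontal log axis, intensity units; the number of genes with a probe set in brackets). Points are single arrays with no error; chondrocyte markers are lowest and fibroblast markers highest in PDGFRa+Sca-1+ cells, and osteoblast markers are highest in PDGFRa+Sca-1- cells.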

How the data were processed

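Gene expression was measured on 1 Affymetrix array per sorted fraction after two-cycle biotin labelling, per the labels' protocols. The deposited values are linear intensity signals per probe set, computed with MAS5 per the submitters' processing notes; no version, detection call or filter is given in the sources used here. The 2% trimmed mean was 500.0 on each deposited array, so the arrays had been scaled beforehand. For the present work 64 control probe sets were removed and each array was rescaled to a common trimmed mean. Signals under the floor of 93.2 were raised to it and log2 was taken (Python 3.11.15, numpy 2.4.6, pandas 2.3.3). Gene names came from the platform annotation: 34945 probe sets had 1 symbol, 932 several and 9160 none. Of those with 1 symbol, 34741 matched the RefSeq table of GRCm38.p6 by gene number, which changed 0 symbols. For counts, a gene was represented by its brightest probe set (mean log2 signal over arrays), and every probe set is given for the FGF genes. The counting code was run on simulated data, with changes planted only in genes well above the floor. That run does not measure how reliable the calls are with 1 array per fraction. The number of arrays limits the precision.

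The members and gene lists were chosen with earlier results of these data known. All 10 members are named. From each of 7 pathway lists, up to 6 genes per comparison past 2-fold, by size, and up to 3 within it, by brightness, could be named, and the 3 nearest genes were named for the 2 members with the largest range among those above the floor on all arrays. The alternatives were floors at the 33rd and 67th percentiles, a pseudocount of 100, quantile and median scaling, the mean over probe sets, and leaving out probe sets whose names end in _s_at or _x_at. Those whose names end in _a_at were kept.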

Additional observations from a re-analysis of the deposited data

How the results depend on the processing

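With 1 array per fraction, leaving out a replicate was not possible, and arrays limit the precision by their number. No paired analysis was possible because each fraction has 1 array. In PDGFRa+Sca-1- over PDGFRa-Sca-1- cells, the count of FGF genes at least 2-fold lower was 0 with a pseudocount of 100, with quantile normalization and with scaling to the median of signals above the floor, against 1 as reported, because Fgfrl1 sat at the threshold. With a floor at the 67th percentile, which leaves fewer genes to compare, 365 of all genes were higher and 388 lower in that comparison, against 563 and 657. The other 79 of 84 counts of FGF genes or of all genes stayed within 1.5 times. Of 184 log2 ratios of single FGF genes under the 7 alternatives, 12 changed their call at 2-fold and 0 of those called changed sign. They concerned Fgf2, Fgfrl1, Fgfr1, Fgfr2, Fgf1 and Fgf7. Besides those given with the results, Fgf7 was 2-fold or more higher in PDGFRa+Sca-1- over PDGFRa-Sca-1- cells with a floor at the 33rd percentile (log2 ratio 1.66). With the mean over probe sets, Fgf1 was lower in PDGFRa+Sca-1+ over PDGFRa-Sca-1- cells (−1.09) and Fgfr2 was no longer so (−0.86). Without the _s_at and _x_at probe sets, Fgfr1 in PDGFRa+Sca-1+ over PDGFRa+Sca-1- cells had −0.93, and Fgfr2 had −1.10 there and −0.86 over PDGFRa-Sca-1- cells. These values came from _a_at probe sets. For the other pathway genes, 38 of 288 list counts moved by over 1.5 times, each a count of 1 to 4 genes as reported. Besides those given with the results, Fgf11, Fgf13 and Fgfr4 lost their calls with a floor at the 67th percentile. Fgf11 also lost its calls with scaling to the median of signals above the floor. In PDGFRa+Sca-1+ over PDGFRa-Sca-1- cells, 1 heparan sulfate enzyme was higher with a floor at the 67th percentile, with a pseudocount of 100 and with that scaling, against 3, and the median of the core proteins was −0.13 with the mean over probe sets, against 0.50. Of 328 log2 values, the members' ratios and the list medians, 30 moved by more than the probe-set SD, and 0 called values changed sign. Scaling to the median of signals above the floor moved the median of all genes by −0.14 for PDGFRa+Sca-1+ over PDGFRa+Sca-1- cells and by −0.11 over PDGFRa-Sca-1- cells. Fgf7, Fgf9 and Fgf18 were called higher, and Fgfr3 and Fgfrl1 lower, in PDGFRa+Sca-1+ cells against both other fractions under all 7 alternatives.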

Other observations

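In several pathway genes the probe sets of 1 gene gave widely different ratios. For the endosulfatase Sulf2, the brightest probe set had a log2 ratio of 0.27 for PDGFRa+Sca-1+ over PDGFRa+Sca-1- cells, whereas the highest of its 3 probe sets had 3.48. For Sdc3 the probe sets ran from −3.69 to −0.15 in the same comparison, for Sdc4 from −2.42 to 0.03 and for Hs3st3b1 from −4.23 to −0.61. Nudt6, which overlaps Fgf2 on the opposite strand of the genome, had signals of 1327 in PDGFRa+Sca-1+ cells, 1839.6 in PDGFRa+Sca-1- cells and 2855.5 in PDGFRa-Sca-1- cells by 1 probe set and of 117, 111 and 111 by the other, and Fgf2os was under the floor on every array.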
